A study of Mus musculus with 18 samples.

Results

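The blood proteins of the complement and clotting cascades are made largely by hepatocytes, and this account follows 39 of their genes in mouse liver. They were taken from a list of 41 symbols of complement and coagulation factors, matched by symbol, with no measured value in the rule. Cfb and C1ra were not found under these symbols and are not analysed here. The 39 genes are a small subset of the 23930 genes of the panel, and all 39 were among the 11720 genes that reached 1 CPM in at least 3 libraries and were tested. CPM is the number of reads of a gene when its library is scaled to 1000000 reads. The panel reads 1 amplicon per gene, so a level is compared between libraries and not between genes.

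Complement is a chain of plasma proteases and binding proteins. Lectins such as mannose-binding lectin, or C1, recognise a surface, their proteases cleave C4 and C2, the resulting convertase cleaves C3, and C5 to C9 then assemble into a pore, while factor I, C4b-binding protein, C1 inhibitor and vitronectin restrain the chain. Coagulation is a second protease chain in which factors VII, IX, X, XI and XII lead to thrombin, which turns fibrinogen into fibrin. Antithrombin, heparin cofactor II and proteins C, S and Z hold it back, and plasmin dissolves the clot. Several of these genes, fibrinogen above all, are known to rise in the liver during the acute phase response to interleukin-6.

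The 18 libraries were made from liver and fall into 6 groups of 3. Every group carried floxed Yap alleles (Yap fl/fl), and every group was given an AAV (adeno-associated virus) vector with the hepatocyte promoter TBG, at an age of 8 weeks in the knockout and overexpression groups (no age is stated for controls). AAV-TBG-GFP gave the controls, AAV-TBG-CRE the hepatocyte-specific Yap knockout, and AAV-TBG-YAP, in which YAP is followed by P2A-EGFP, the hepatocyte-specific YAP overexpression. In units of 1e11 genome copies per mouse the dose was 2 for controls and overexpression and 0.5 for the knockout, so that virus dose and genotype differ together there. Feeding began 2 weeks later, with 5 days of acclimation and then 4 weeks of Lieber-DeCarli control diet (pair-fed) or ethanol diet. The ethanol groups ended with a gavage of ethanol (5 g/kg, 33% v/v) and the pair-fed groups with one of maltose-dextrin, and the mice were killed 9 hours after it. The libraries are numbered 1 to 3 in each group, but no label says that each is a separate mouse, so p-values measure the spread between these libraries. In whole liver, fewer hepatocytes and less RNA per hepatocyte cannot be told apart.

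The libraries held 4680152 to 5806228 reads. Yap1 was 51.5 to 66.6 CPM in the 6 control libraries, 3.34 to 15.1 in the 6 knockout libraries and 106.4 to 214.1 in 5 overexpression libraries, while the pair-fed overexpression library labelled replicate 1 stood at 57.6 CPM. Alb, the defining hepatocyte transcript, ranged from 23604 to 54184 CPM. Xist, which is transcribed from the inactive X chromosome, exceeded the Y-linked Ddx3y in 5 libraries: pair-fed controls 2 and 3 and all 3 pair-fed knockouts. In the other 13, Ddx3y was the higher. This pattern is therefore the same in both overexpression groups and in all 9 ethanol-fed libraries, differs in full between the pair-fed and ethanol-fed knockouts, and is mixed in the pair-fed controls. Results that compare the knockout diets are given with this in view, and diet and sex-chromosome pattern cannot be told apart there. A fit with the pattern as a term can estimate it only within the pair-fed controls, from replicate 1 against replicates 2 and 3. Where the pattern varies among the compared groups, a value with that term thus rests on 1 library and says little about the knockout. Where all compared libraries share the pattern, the estimate is that of the main fit.

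The share of all reads that came from the 39 members was 5.25% ± 0.293 (SD, n = 3) in pair-fed controls and 6.50% ± 1.07 in ethanol-fed controls. In the knockout it was 5.38% ± 0.451 and 5.92% ± 0.467, and in the overexpression groups 4.77% ± 0.355 and 7.04% ± 0.874. The overexpression groups did not overlap, and those of the other genotypes did. An exact two-sided permutation test gave p = 0.2 for controls, 0.3 for knockout and 0.1 for overexpression, and 0.1 is the smallest p that 3 against 3 libraries allow. The difference between diets was 1.25 percentage points in controls, 0.545 in the knockout and 2.26 in overexpression, and the 3 fibrinogen chains came to 1.07, 1.00 and 1.30 points. The difference of the members was 0.706 without ethanol-fed control replicate 1, and in the knockout 0.285 without pair-fed replicate 1 (0.285 to 0.814 over the libraries left out). Without the 3 members with the most reads it was 0.565, 0.134 and 0.935 points in control, knockout and overexpression, and without the 10 most abundant genes of the libraries the knockout value was 0.870. The share of the 3 fibrinogen chains went from 0.959% to 2.03% in controls and from 1.13% to 2.14% in the knockout. In overexpression it went from 0.787% to 2.09% (exact permutation p = 0.2, 0.1 and 0.1 for control, knockout and overexpression). Without these 3 chains the share of the members was 4.29% and 4.47% in controls and 4.25% and 3.79% in the knockout. In overexpression it was 3.99% and 4.95% (exact permutation p = 0.6, 0.2 and 0.1 in the same order). C3, the central complement protein, took 1.13% ± 0.223 of reads in pair-fed and 1.09% ± 0.251 in ethanol-fed controls, 1.12% ± 0.0910 and 0.933% ± 0.0926 in the knockout, and 0.841% ± 0.0979 and 1.34% ± 0.192 in overexpression livers.

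**Figure D1:**
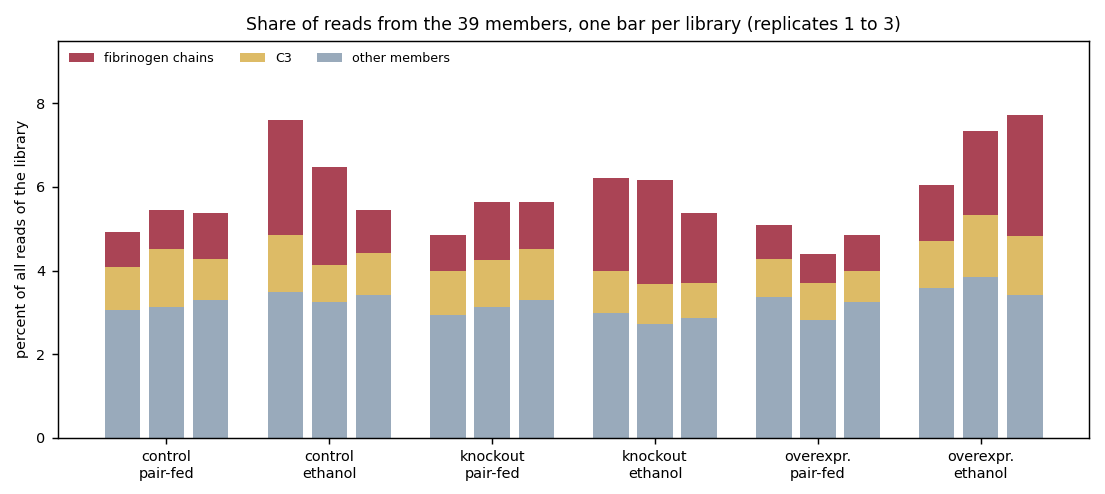
Percent of all reads of each library (y axis) that came from fibrinogen chains, C3 and the other members, stacked, with 1 bar per library and 3 libraries per group. The fibrinogen segment is taller in most ethanol-fed libraries than in pair-fed ones, and ethanol-fed control replicate 3, the last bar of its group, is the exception among the controls.

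Ethanol feeding was compared with pair-feeding in each genotype with limma on log2(CPM + 1), fitted over all 18 libraries and adjusted by Benjamini-Hochberg over the 11720 genes. A gene passed at an adjusted p under 0.05. In controls 1 of 39 members passed (2.56%), where 2.7% of all tested genes did, and it fell (1.02% of all genes rose and 1.67% fell). In overexpression livers 2 passed (5.13%), 1 in each direction, where 1.15% of all genes did, 0.401% higher and 0.751% lower. In the knockout 9 passed (23.1%), 1 that rose and 8 that fell, where 9.9% of all genes did, 4.1% of them higher and 5.79% lower. The median log2 change of the members was -0.08 in controls, -0.21 in the knockout and 0.09 in overexpression, against -0.09, -0.05 and -0.07 for all genes, and the control median became 0.02 with TMM scaling. Counted by direction alone, 16, 15 and 25 of the 39 members were higher on ethanol in control, knockout and overexpression livers, where 41.3%, 45.6% and 42.4% of all genes were. The ethanol-fed libraries lay above all pair-fed libraries for 4 members in controls (10.3%), where 7.69% of all genes did, for 10 in the knockout (25.6%, against 11.7%) and for 13 in overexpression (33.3%, against 7.83%). They lay below for 8 in controls (20.5%, against 14.4%), 14 in the knockout (35.9%, against 16.9%) and 5 in overexpression (12.8%, against 14.6%).

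**Figure D2:**
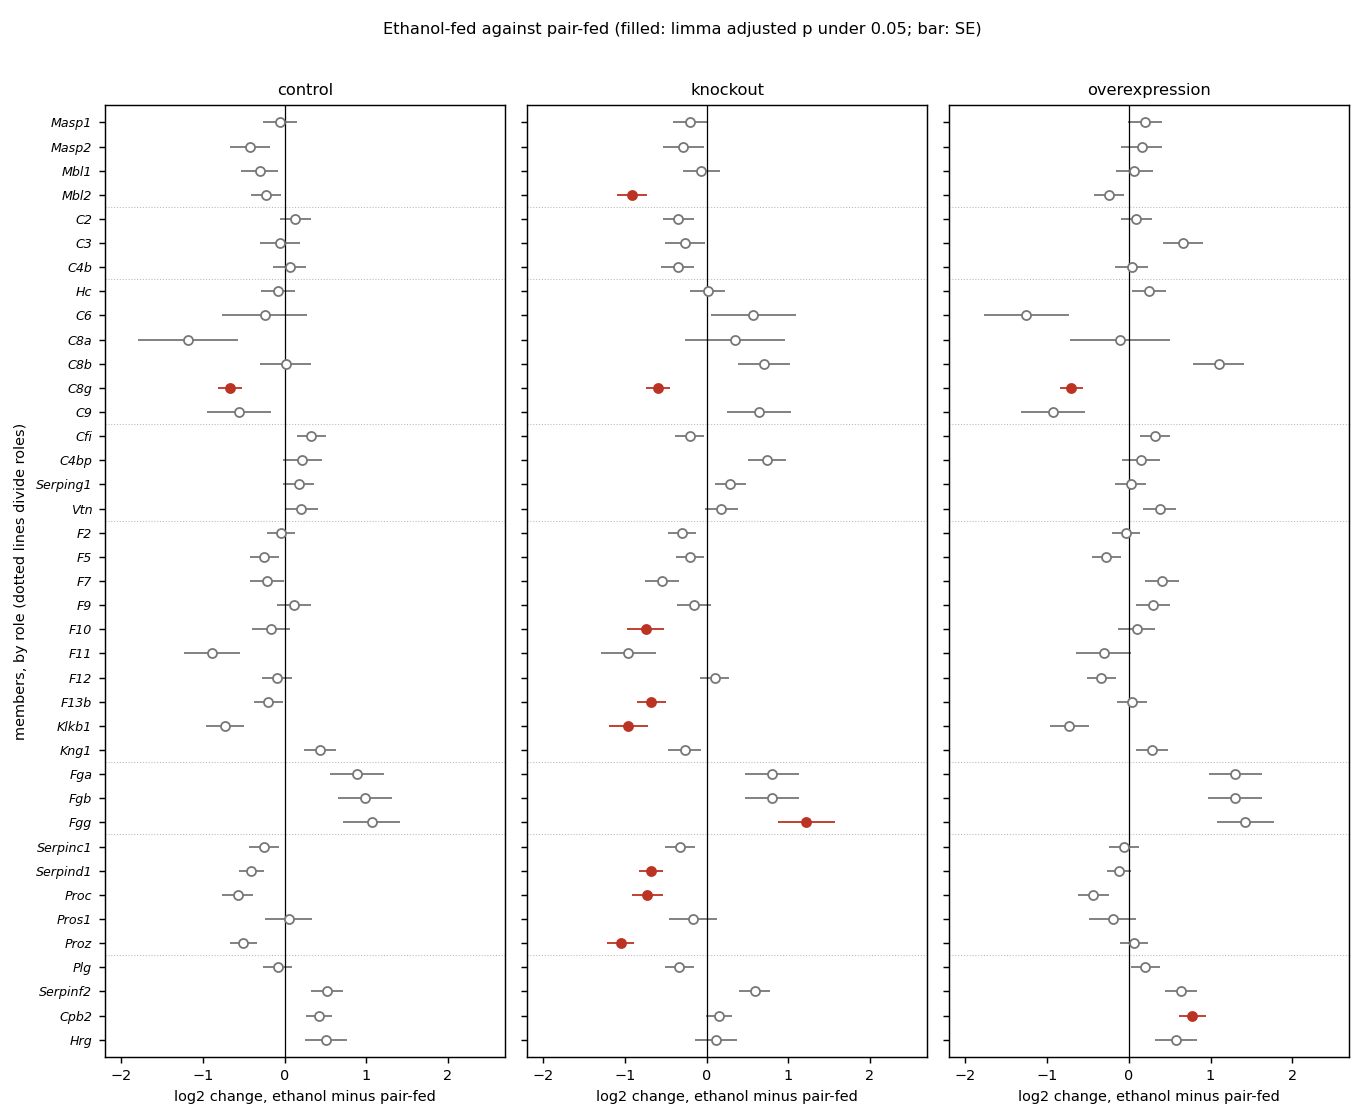
Log2 change from pair-fed to ethanol-fed liver (x axis) of the 39 members in control, knockout and overexpression livers, with points for the estimate, bars for its SE, and filled red points for an adjusted p under 0.05. C8g is filled in all 3 panels, the fibrinogen chains lie to the right of 0 in all 3, and the knockout panel holds 9 filled points.

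Fibrinogen is the soluble precursor of the clot and is built from an alpha, a beta and a gamma chain. Fga, which encodes the alpha chain, was 3194, 3658 and 4218 CPM in pair-fed controls and 10726, 7934 and 3685 in ethanol-fed controls. In the knockout it was 3666, 5316 and 4180.0 pair-fed and 8100.4, 8745 and 6051 ethanol-fed, and in overexpression livers 3138, 2429 and 3139 and 5069, 6970.1 and 10201. The knockout and overexpression groups did not overlap, whereas ethanol-fed control replicate 3 lay inside the pair-fed range. Fgb, the beta chain, was 2559, 2938 and 3711 CPM against 8026, 8402 and 3219.5 in controls, 2962, 5027 and 3633 against 7138, 7519 and 5284 in the knockout, and 2604, 2161 and 2788 against 4409, 6564 and 8097 in overexpression. Fgg, the gamma chain, was 2453, 2766 and 3273 against 8583, 7004 and 3397, 2169, 3554 and 3439.9 against 6996, 8781 and 5462, and 2409.6, 2313 and 2632 against 4015, 6574 and 10835 CPM in the same order. All 3 chains had the same lowest library in each ethanol-fed group: replicate 3 in control and knockout, and replicate 1 in overexpression.

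The log2 change of Fgg was 1.07 ± 0.35 (SE) in controls, 1.22 ± 0.35 in the knockout and 1.43 ± 0.35 in overexpression, with limma adjusted p = 0.105, 0.0315 and 0.0508. Only the knockout value passed the threshold. For Fga the values were 0.89 ± 0.33, 0.80 ± 0.33 and 1.30 ± 0.33 (adjusted p = 0.156, 0.13 and 0.0565), and for Fgb 0.99 ± 0.33, 0.80 ± 0.33 and 1.30 ± 0.33 (adjusted p = 0.113, 0.13 and 0.0565). All 9 estimates were positive and had an unadjusted p under 0.05, and 8 of the 9 missed the adjusted threshold. Without ethanol-fed control replicate 3 all 3 chains passed in controls, Fgg at a log2 change of 1.46 (adjusted p = 0.0385). Fgg in overexpression passed under several other settings, among them edgeR on the recovered reads (1.62, adjusted p = 0.0292), and in the knockout it failed in 5 of the 6 fits that left out 1 of the 6 knockout libraries (adjusted p up to 0.126). With the sex-chromosome pattern as a term, the knockout estimate of Fgg was 1.51 (adjusted p = 0.638).

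The 3 fibrinogen genes are neighbours on mouse chromosome 3, where they lie within 42.1 kb, at chr3:83007724-83015056 for Fgg, chr3:83026153-83033627 for Fga and chr3:83042246-83049863 for Fgb (GRCm38.p6, RefSeq; the files name no build, and these positions come from the reference). Since their levels shifted alike, the 250 bases before each start site are shown, 5′ to 3′ on the gene's own strand (plus for Fgg and Fga, minus for Fgb), from RefSeq's GRCm38.p6 promoters. Capitals mark matches on either strand to CTGGGAA, the core of an interleukin-6 response element known from fibrinogen genes, TTGCNNAA, a C/EBP core, GTTAAT, an HNF1 core, and TTCNNNGAA, the palindrome that STAT factors bind. The windows are chr3:83007474-83007723, chr3:83025903-83026152 and chr3:83049864-83050113.
Fgg: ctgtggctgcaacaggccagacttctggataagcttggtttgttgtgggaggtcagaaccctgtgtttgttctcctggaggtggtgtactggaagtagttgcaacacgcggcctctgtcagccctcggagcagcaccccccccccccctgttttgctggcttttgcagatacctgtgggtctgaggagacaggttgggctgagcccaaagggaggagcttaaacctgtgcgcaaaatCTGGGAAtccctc
Fga: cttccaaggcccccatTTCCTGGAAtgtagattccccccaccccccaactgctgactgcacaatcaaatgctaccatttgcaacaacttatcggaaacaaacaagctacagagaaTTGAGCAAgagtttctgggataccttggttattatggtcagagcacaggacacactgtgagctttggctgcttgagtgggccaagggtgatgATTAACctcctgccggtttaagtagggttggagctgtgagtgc
Fgb: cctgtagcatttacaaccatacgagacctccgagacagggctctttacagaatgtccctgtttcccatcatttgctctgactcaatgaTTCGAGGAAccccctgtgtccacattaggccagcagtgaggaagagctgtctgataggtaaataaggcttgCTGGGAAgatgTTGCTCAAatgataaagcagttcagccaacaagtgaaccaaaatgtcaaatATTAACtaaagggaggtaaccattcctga
Fgg held CTGGGAA alone, which ended 7 bases before the start. Fga held GTTAAT at 38 and TTCNNNGAA at 226 bases before it, with TTGCNNAA between them, each counted from the last base of the match to the start. Fgb held all 4, GTTAAT at 24, TTGCNNAA at 73, CTGGGAA at 85 and TTCNNNGAA at 154 bases before the start, and no matches overlapped in the 3 windows. Of 27025 mouse promoter windows of this length, 9.06% held CTGGGAA, 9.55% TTGCNNAA, 6.54% GTTAAT and 7.14% TTCNNNGAA. Among the 31 members with a promoter entry the counts were 4, 8, 9 and 6. TGACGTGG, an ATF6 site, and the endoplasmic reticulum stress response element were in 0.496% and 0.122% of all windows and in none of the 31. A match says only that these letters stand in the window.

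**Figure D3:**
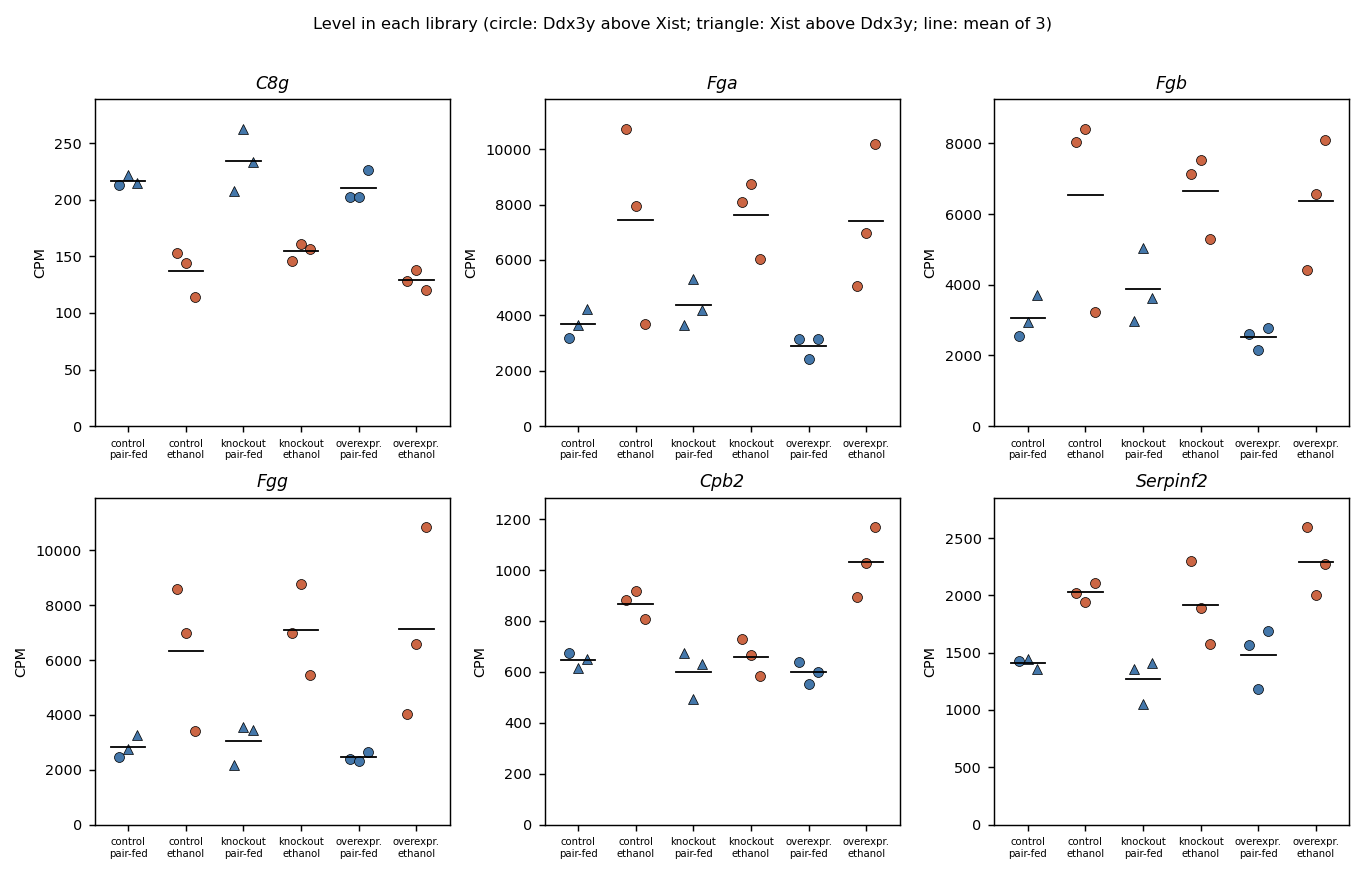
CPM in each library (y axis) of C8g, the fibrinogen chains Fga, Fgb and Fgg, Cpb2 and Serpinf2 in the 6 groups (x axis), with blue for pair-fed, orange for ethanol-fed, triangles for libraries with Xist above Ddx3y, circles for the others and a line at the mean of 3. All 9 orange C8g points lie below all 9 blue ones, and 1 orange control point of each fibrinogen chain sits at or close to the pair-fed level.

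Of the 10 procoagulant proteases and cofactors, 3 fell on ethanol in the knockout, Klkb1, F10 and F13b, and none passed in controls or in overexpression livers. Of all tested genes 5.79% fell in the knockout, where diet and sex-chromosome pattern cannot be told apart. Klkb1, plasma prekallikrein, which activates factor XII, was 141, 144 and 217 CPM in pair-fed and 102.6, 94.2 and 99.2 in ethanol-fed controls, 157, 269 and 203 and 90.7, 92.4 and 137 in the knockout, and 169, 111.8 and 197 and 106.5, 89.5 and 84.9 in overexpression. The diets did not overlap in any genotype, and the log2 change was -0.73 ± 0.24, -0.96 ± 0.24 and -0.73 ± 0.24 (adjusted p = 0.105, 0.015 and 0.139). Klkb1 thus passed in the knockout alone, and the test of the difference between genotypes did not pass (interaction -0.23 ± 0.33 for knockout, 0.00 ± 0.33 for overexpression). The knockout call was lost without pair-fed replicate 2 or ethanol-fed replicate 1 or 2 (adjusted p = 0.0857, 0.0696 and 0.0658), and with the sex-chromosome term (-0.64, adjusted p = 0.808).

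F10, the protease that cleaves prothrombin, was 1096, 1036 and 994 CPM in pair-fed and 612, 651 and 598 in ethanol-fed knockouts, a fall of 0.75 on the log2 scale (adjusted p = 0.0436). In controls it was 640.0, 1151 and 888 and 1103, 707 and 594, and in overexpression 611, 578 and 603 and 587, 824 and 538, with overlap in both. The pair-fed libraries with Xist above Ddx3y were the high ones: F10 ranged from 888 to 1151 CPM in these 5 and from 578 to 640 in the other 4 pair-fed libraries. With that pattern as a term, estimated from the pair-fed controls alone, the knockout change was -0.09 (adjusted p = 0.98). The call was lost when any 1 of the 6 libraries was left out (adjusted p from 0.079 to 0.111). It was also lost with no filter on low values (adjusted p = 0.0815), TMM scaling (0.0663), quantile normalization (0.0761) and edgeR (0.0726).

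F13b, the carrier subunit of the fibrin-crosslinking factor XIII, was 229, 274 and 309 and 158, 181 and 164 CPM in pair-fed and ethanol-fed knockouts (-0.68 ± 0.18, adjusted p = 0.0219). Its values in controls were 215, 207 and 302 and 185, 219.8 and 218, and in overexpression 192, 196 and 258 and 210.3, 256 and 196, so that only the knockout diets were apart. The F13b call was lost without pair-fed replicate 2 or 3 or ethanol-fed replicate 1 (adjusted p = 0.0713, 0.0892 and 0.0811), with TMM scaling (0.0511), edgeR (0.055) or the compared groups alone (0.0511), and with the sex-chromosome term (-0.46, adjusted p = 0.821). F7, the factor that starts clotting with tissue factor, was 219.8, 279.5 and 280.4 and 237, 204 and 226 CPM in controls, 362, 211 and 282 and 229, 169.8 and 178 in the knockout, and 195, 121.9 and 188 and 234, 200.4 and 223 in overexpression. Its estimates were -0.22 ± 0.21, -0.54 ± 0.21 and 0.41 ± 0.21, and none passed. Kng1, high molecular weight kininogen, was 3272, 3778 and 4233 and 5097, 5147 and 4933 CPM in controls, 3259, 3739 and 4787 and 3143, 2875 and 3689 in the knockout, and 3988, 3901 and 4259 and 4285, 5580.1 and 4982 in overexpression (0.44 ± 0.20, -0.27 ± 0.20 and 0.28 ± 0.20). Ethanol-fed Kng1 thus lay above pair-fed in the control and overexpression groups and overlapped in the knockout.

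The remaining procoagulant members did not pass in any genotype. F11, a link in the contact pathway, had log2 changes of -0.89 ± 0.34, -0.96 ± 0.34 and -0.31 ± 0.34. F2, prothrombin, stayed between 2572 and 3498 CPM in all 18 libraries, and its estimates were -0.04 ± 0.17, -0.30 ± 0.17 and -0.03 ± 0.17. F5, the cofactor of factor X, was at -0.25 ± 0.18, -0.20 ± 0.18 and -0.27 ± 0.18, F9 at 0.12 ± 0.21, -0.16 ± 0.21 and 0.29 ± 0.21, and F12, which starts the contact pathway, at -0.09 ± 0.18, 0.10 ± 0.18 and -0.34 ± 0.18.

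Among the 5 natural anticoagulants, 3 fell in the knockout, where 5.79% of all genes fell, and none passed in the other genotypes. The knockout diets differ in sex-chromosome pattern as well. Proz, protein Z, the cofactor with which the protein Z-dependent inhibitor blocks factor X, had the smallest p of any member in the knockout. It was 212, 218 and 215 CPM in pair-fed and 100.2, 110.03 and 99.7 in ethanol-fed knockouts, a fall of 1.05 on the log2 scale (SE 0.17, adjusted p = 0.000885). In controls it was 152, 243 and 214 and 163, 121.3 and 139 CPM (-0.51 ± 0.17, adjusted p = 0.109), and in overexpression 126.1, 113.2 and 133 and 136, 133 and 119.2 (0.06 ± 0.17). Across all pair-fed libraries Proz ran from 212 to 243 CPM in the 5 with Xist above Ddx3y and from 113.2 to 152 in the other 4. The knockout estimate with that pattern as a term was -0.47 (adjusted p = 0.738), which rests on pair-fed control replicate 1, at 152 CPM, against replicates 2 and 3. Leaving out single libraries kept it past the threshold (adjusted p from 0.00266 to 0.00591).

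Serpind1, heparin cofactor II, was 510.3, 455 and 460.3 and 283, 280.0 and 328 CPM in the knockout (-0.68 ± 0.15, adjusted p = 0.00773), 502, 571 and 468 and 356, 391 and 414 in controls (-0.41 ± 0.15, adjusted p = 0.151), and 424, 357 and 425 and 372, 408 and 328 in overexpression (-0.12 ± 0.15). Ethanol-fed libraries lay below pair-fed ones in control and knockout livers, and the knockout call was lost with the sex-chromosome term (-0.64, adjusted p = 0.641). Proc, protein C, which inactivates factors V and VIII, was 228, 394 and 272 and 164, 169.8 and 192 CPM in the knockout (-0.73 ± 0.19, adjusted p = 0.0207), 232, 260.0 and 314 and 176, 176 and 185 in controls (-0.57 ± 0.19, adjusted p = 0.115), and 227, 178 and 262 and 175, 164 and 149 in overexpression (-0.43 ± 0.19, adjusted p = 0.298). Proc was lower in every ethanol-fed library than in every pair-fed library of the same genotype. Its knockout call was lost without pair-fed replicate 2 (-0.51, adjusted p = 0.124) or ethanol-fed replicate 1 or 2 (0.078 and 0.0686), with TMM scaling (0.0554), edgeR (0.0516) or the compared groups alone (0.0731), and with the sex-chromosome term (-0.43, adjusted p = 0.845). Serpinc1, antithrombin, the main inhibitor of thrombin, had estimates of -0.25 ± 0.18, -0.33 ± 0.18 and -0.06 ± 0.18, and Pros1, protein S, of 0.05 ± 0.29, -0.17 ± 0.29 and -0.20 ± 0.29; neither passed.

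The 4 genes of fibrinolysis included the 1 member that rose with a call on ethanol in overexpression livers, where 0.401% of all genes rose. Cpb2 encodes the carboxypeptidase known as TAFI, which protects fibrin from plasmin. It was 639.9, 552 and 601 CPM in pair-fed and 895, 1027 and 1167 in ethanol-fed overexpression livers, which did not overlap, a log2 change of 0.78 ± 0.16 (adjusted p = 0.0248). In controls it was 674, 614 and 650.0 and 881, 916 and 807 (0.42 ± 0.16, adjusted p = 0.171), and in the knockout 673, 492 and 630.0 and 727, 666 and 585 (0.15 ± 0.16). The control diets were apart and the knockout diets overlapped. The interaction of diet with overexpression was 0.35 ± 0.23 and with knockout -0.28 ± 0.23, and neither passed (adjusted p = 0.83 and 0.936). The overexpression call was lost without pair-fed replicate 1, 2 or 3 or ethanol-fed replicate 2 or 3 (adjusted p = 0.0722, 0.077, 0.0893, 0.0844 and 0.127).

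Serpinf2, alpha-2-antiplasmin, the inhibitor of plasmin, was higher on ethanol in every genotype without passing. Its estimates were 0.52 ± 0.19, 0.59 ± 0.19 and 0.64 ± 0.19 (adjusted p = 0.155, 0.0603 and 0.11), and the groups did not overlap in any genotype. Hrg, histidine-rich glycoprotein, which binds plasminogen and heparin, was at 0.51 ± 0.26, 0.11 ± 0.26 and 0.57 ± 0.26, and Plg, plasminogen itself, at -0.08 ± 0.18, -0.34 ± 0.18 and 0.20 ± 0.18.

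On the complement side, the lectin pathway genes held 1 called member, which fell in the knockout, where 5.79% of all genes did. Mbl2, mannose-binding lectin C, was 435, 572 and 533 CPM in pair-fed and 241, 236 and 349 in ethanol-fed knockouts, a log2 change of -0.91 ± 0.18 (adjusted p = 0.00467). Its values were 351, 446 and 499 and 386, 332 and 378 in controls (-0.23 ± 0.18) and 316, 355 and 408 and 275, 301 and 331 in overexpression (-0.25 ± 0.18), with overlap in both. Mbl2 was 435 to 572 CPM in the 5 pair-fed libraries with Xist above Ddx3y and 316 to 408 in the other 4, and with that term the knockout estimate was -0.48 (adjusted p = 0.803). Mbl1, mannose-binding lectin A, was 304, 256 and 278 and 273, 153 and 274 CPM in controls, 159, 278 and 191 and 218, 167 and 203 in the knockout, and 335, 275 and 272 and 316, 358 and 256 in overexpression. Its diets overlapped in each genotype. Masp2, the protease that cleaves C4 and C2, was lower in every ethanol-fed than in every pair-fed control library, and its diets overlapped in the other genotypes. Masp1, which activates Masp2, was at -0.06 ± 0.21, -0.21 ± 0.21 and 0.20 ± 0.21, and Masp2 at -0.42 ± 0.25, -0.29 ± 0.25 and 0.16 ± 0.25.

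None of the 3 convertase components passed on any diet comparison. C3 was 9157, 8772 and 7302 CPM in pair-fed and 11171, 14792 and 14113 in ethanol-fed overexpression livers, a log2 change of 0.66 ± 0.24 (adjusted p = 0.203), against -0.05 ± 0.24 in controls and -0.27 ± 0.24 in the knockout. The overexpression diets did not overlap for C3, and ethanol was the higher. In the knockout they did not overlap either, and ethanol was the lower. There C3 was 10437, 11042 and 12226 CPM pair-fed and 10115, 9559 and 8307 ethanol-fed. C4b was also lower in every ethanol-fed than in every pair-fed knockout library. C2, the protease of the C4b2a convertase, was 62.7, 44.2 and 63.7 and 58.3, 58.1 and 68.5 CPM in controls, 61.6, 45.9 and 62.9 and 43.0, 42.3 and 46.6 in the knockout, and 57.6, 62.1 and 71.1 and 67.9, 83.4 and 54.6 in overexpression. Its estimates were 0.13 ± 0.19, -0.35 ± 0.19 and 0.09 ± 0.19, and those of C4b 0.06 ± 0.20, -0.36 ± 0.20 and 0.03 ± 0.20. C4b has a near-identical copy, C4a, so its reads may be split between them and its values are uncertain.

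C8g, a lipocalin that forms the gamma subunit of C8, was the only member that passed in all 3 genotypes. It was 213, 222 and 215 CPM in pair-fed and 153, 144 and 114.2 in ethanol-fed controls. The knockout gave 207, 262 and 233 and 146, 161 and 157, and overexpression 202, 203 and 226 and 128.02, 138 and 120.2. All 9 ethanol-fed libraries, at 114.2 to 160.9 CPM, lay below all 9 pair-fed libraries, at 202 to 262 CPM, and C8g was the only member of which this held; 1.18% of all tested genes were separated in that direction, and 0.35% in the other, where no member was. The log2 change was -0.67 ± 0.15 in controls, -0.59 ± 0.15 in the knockout and -0.70 ± 0.15 in overexpression (limma adjusted p = 0.0181, 0.015 and 0.0248), and both interactions were small (0.07 ± 0.21 for knockout, -0.04 ± 0.21 for overexpression). C8g lies on chromosome 2 (chr2:25498650-25501777, GRCm38.p6). The calls were close to the threshold: with TMM scaling the changes were -0.57 in controls and -0.62 in overexpression (adjusted p = 0.0608 and 0.0662). The call was lost in controls without pair-fed replicate 2 or 3 or ethanol-fed replicate 2 or 3 (adjusted p = 0.0692, 0.0541, 0.0608 and 0.0852), in the knockout without pair-fed replicate 2 or ethanol-fed replicate 1 (0.0766 and 0.0633), and in overexpression without pair-fed replicate 1 or 3 or ethanol-fed replicate 2 or 3 (0.0802, 0.111, 0.0661 and 0.113). With the sex-chromosome term C8g was at -0.64 in controls, -0.56 in the knockout and -0.70 in overexpression (adjusted p = 0.273, 0.69 and 0.0281).

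C8b and C8a, which encode the beta and alpha subunits of C8, did not pass. C8b was 386, 185 and 271 and 282, 223 and 317 CPM in controls, 141, 172 and 151 and 343, 265 and 175 in the knockout, and 362, 129.4 and 287 and 504, 561 and 471 in overexpression, with estimates of 0.01 ± 0.32, 0.70 ± 0.32 and 1.10 ± 0.32 (adjusted p = 0.99, 0.166 and 0.0929). Ethanol-fed C8b lay above pair-fed in the knockout and overexpression groups. C8a was 219, 122.6 and 189.5 and 249.6, 19.3 and 86.6 CPM in controls, 51.7, 201 and 81.5 and 163, 154 and 70.0 in the knockout, and 265, 202 and 234 and 212, 277 and 170.0 in overexpression. Its libraries spread widely within groups, from 19.3 to 249.6 CPM among ethanol-fed controls, and the estimates were -1.18 ± 0.61, 0.35 ± 0.61 and -0.11 ± 0.61 with none called. C8b and C8a are neighbours on chromosome 4 (chr4:104766317-104804548 and chr4:104815679-104876487, GRCm38.p6).

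C6 and C9, which bind C5b and line the pore, were among the members divided by the sex-chromosome pattern. C6 was 174, 33.0 and 44.6 CPM in pair-fed controls, 36.2, 36.3 and 36.8 in pair-fed knockouts and 207, 226 and 297 in pair-fed overexpression livers. On ethanol it was 155, 26.8 and 36.8, 51.1, 69.6 and 45.9 and 126.2, 87.7 and 91.1 in the same order. Among the 9 pair-fed libraries the 5 with Xist above Ddx3y held 33.0 to 44.6 CPM and the other 4 held 174 to 297. The ethanol-fed libraries all had Ddx3y above Xist, and among them ethanol-fed control replicates 2 and 3 held 26.8 and 36.8 CPM. C9 was 449, 112.2 and 225, 110.7, 93.6 and 122.3 and 425, 444 and 609 CPM in the pair-fed groups and 249, 82.1 and 171, 165, 122.6 and 239.9 and 257, 249.8 and 256 in the ethanol-fed ones, and it showed the same division of pair-fed libraries. In overexpression livers, where the pattern is uniform, ethanol-fed C6 and C9 lay below pair-fed without passing (-1.25 ± 0.52 and -0.93 ± 0.39, limma adjusted p = 0.265 and 0.275). In the knockout, where the pattern differs between diets, they lay above pair-fed without passing (0.57 ± 0.52 and 0.64 ± 0.39). The control diets overlapped (-0.24 ± 0.52 and -0.56 ± 0.39). Hc, which encodes C5, was 633, 417 and 533 and 567, 397 and 528 CPM in controls, 567, 428 and 499.9 and 569.6, 399.9 and 544 in the knockout, and 714, 434 and 569 and 692, 601 and 709 in overexpression, and its diets overlapped in each.

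Over all members, 6 were higher in each of the 5 pair-fed libraries with Xist above Ddx3y than in each of the other 4: Proz, F10, Fga, Fgb, Mbl2 and Serpinc1. Another 5, C9, C8a, C6, C4bp and Serping1, were lower. Of all tested genes 3.87% were separated in the first direction and 4.3% in the second. Of the 5 libraries 3 are the pair-fed knockouts, and of the other 4 libraries 3 are the pair-fed overexpression livers, so knockout, overexpression and sex-chromosome pattern are tangled in this division. The part of each in the members' levels was not tested.

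**Figure D4:**
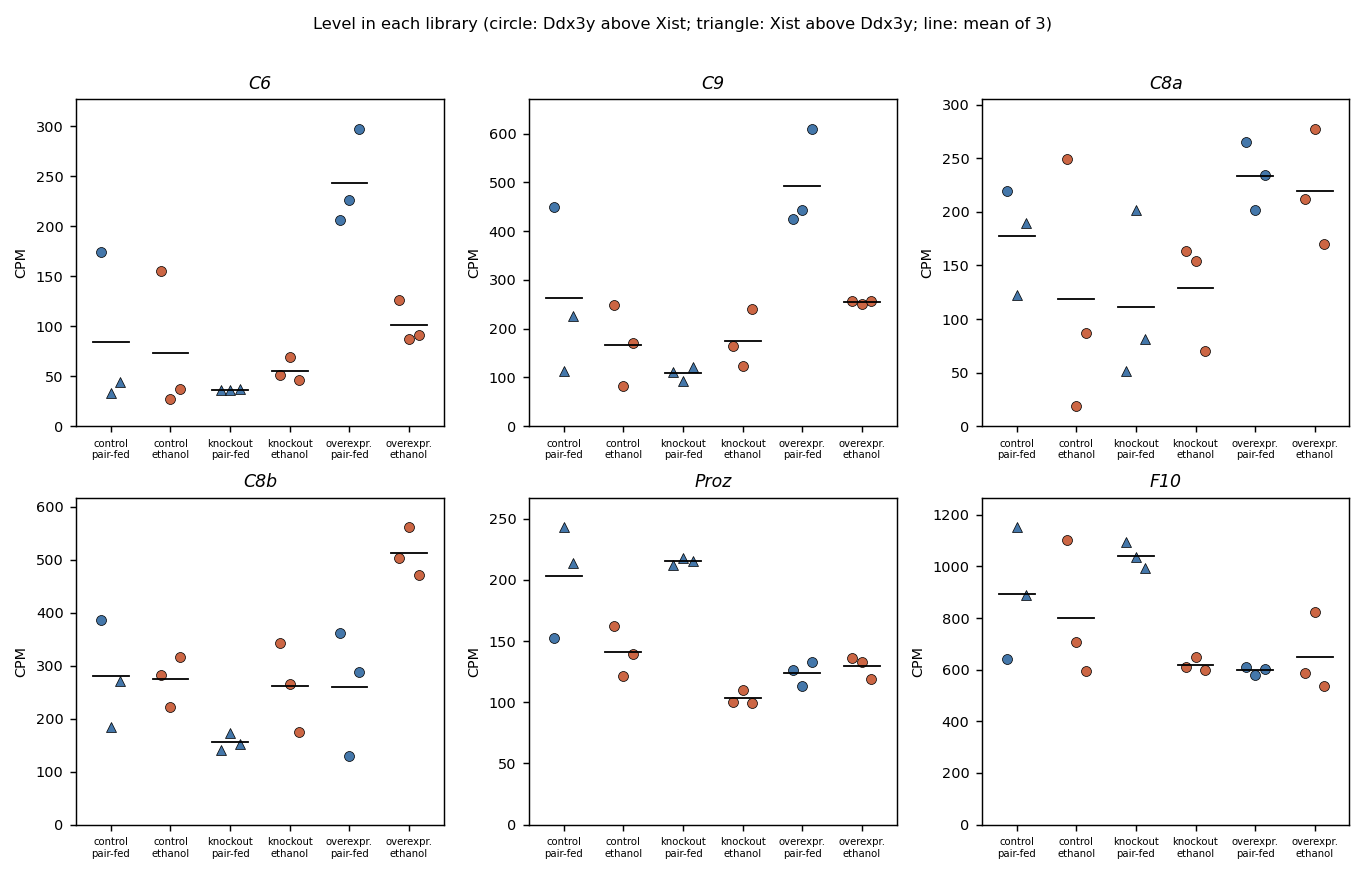
CPM in each library (y axis) of C6, C9, C8a, C8b, Proz and F10 in the 6 groups (x axis), with triangles for libraries with Xist above Ddx3y, circles for the others, blue for pair-fed, orange for ethanol-fed and a line at the mean of 3. Blue triangles of C6 lie between 33.0 and 44.6 CPM and blue circles between 174 and 297, and for Proz and F10 the order is turned.

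The 4 complement regulators did not pass in any genotype. C4bp, C4b-binding protein, was closest, with 0.74 ± 0.24 in the knockout (adjusted p = 0.0542) against 0.22 ± 0.24 in controls and 0.15 ± 0.24 in overexpression. Cfi, factor I, which cleaves C3b and C4b, was at 0.32 ± 0.18, -0.21 ± 0.18 and 0.32 ± 0.18. Serping1, C1 inhibitor, was at 0.17 ± 0.19, 0.29 ± 0.19 and 0.02 ± 0.19, and Vtn, vitronectin, at 0.21 ± 0.20, 0.18 ± 0.20 and 0.38 ± 0.20. The medians of the regulators were 0.21, 0.23 and 0.23.

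Beside the 9 calls of the knockout stand changes in markers of other cell types. The Kupffer cell markers, the genes of the resident liver macrophages, fell together there: 8 of the 10 tested passed, and their summed level was 477 to 593 CPM in pair-fed and 166 to 214 in ethanol-fed knockouts. In controls the sum was 435 to 497 and 281 to 553 CPM, and in overexpression 281 to 620 and 376 to 407, with none of the 10 called in either. The median log2 change in the knockout was -1.46 for Kupffer, -0.65 for cholangiocyte and -0.57 for lymphocyte markers. It was -0.48 for sinusoidal endothelium, -0.37 for stellate cells and 0.33 for neutrophils. Of these other markers, 1 of lymphocytes fell and 1 of endothelium rose with a call. The sum of the hepatocyte markers was 67564 to 78964 CPM in pair-fed and 52744 to 66422 in ethanol-fed knockouts. Of the 7 tested hepatocyte markers, 5 were higher in value on ethanol and 1 passed, which fell. Their median log2 change was 0.05, against -0.05 for all genes. Alb, part of that sum, had a mean of 47575 CPM in pair-fed and 31629 in ethanol-fed knockouts. The part of these shifts in the members' changes was not tested. With the sex-chromosome pattern as a term no member and no other gene passed in the knockout diet comparison, in a fit that estimates the pattern from the pair-fed controls alone.

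The genotypes were then compared on each diet. In pair-fed livers no member passed between knockout and control, where 0.00853% of all genes did, and 2 (5.13%) had an unadjusted p under 0.05, where 3.13% of all genes had. C9 (-1.05 ± 0.39), C8b (-0.79 ± 0.32) and Mbl1 (-0.45 ± 0.23) had the smallest p values, and each was lower in the knockout in value. Without pair-fed control replicate 1, C9 was at -0.55 and C8b at -0.53, and without pair-fed control replicate 2 C9 was at -1.55. Mbl1 was at -0.27 without pair-fed knockout replicate 1. Between pair-fed overexpression and control no member passed either, where 0.145% of all genes did, and 6 (15.4%) had an unadjusted p under 0.05, where 8.46% of all genes had. The smallest belonged to Proz (-0.68 ± 0.17, adjusted p = 0.135), C6 (1.90 ± 0.52, adjusted p = 0.209) and F7 (-0.65 ± 0.21, adjusted p = 0.318). Without pair-fed control replicate 1, the library of that group with Ddx3y above Xist, C6, C9 and Proz passed (C6 at 2.62, adjusted p = 0.00618, and Proz at -0.88, adjusted p = 0.0114). With the pattern as a term, which rests on that same library, C6 was at 0.46 and Proz at -0.30.

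On the ethanol diet all libraries share the sex-chromosome pattern. Between knockout and control no member passed, where 0.0171% of all genes did, and 8 members (20.5%) had an unadjusted p under 0.05, all lower in the knockout, where 8.34% of all genes had in either direction. The lowest p values were those of Kng1 (-0.65 ± 0.20, adjusted p = 0.386), Proz (-0.44 ± 0.17, adjusted p = 0.524) and Serpind1 (-0.38 ± 0.15, adjusted p = 0.526). The knockout libraries lay below all control libraries for 9 of 39 members (23.1%), where 5.21% of all genes did, and above them for none, where 8.23% did. Those 9 were C2, C4b, F2, F13b, Kng1, Serpind1, Proz, Plg and Cpb2.

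Between ethanol-fed overexpression and control livers no member passed, where 0.102% of all genes did, and 2 (5.13%) had an unadjusted p under 0.05, both higher with overexpression, where 8.84% of all genes had in either direction. These were C8b (0.91 ± 0.32, adjusted p = 0.333) and C8a (1.50 ± 0.61, adjusted p = 0.453), and Hc followed (0.44 ± 0.21, adjusted p = 0.575). C8a was at 0.55 without ethanol-fed control replicate 2 and at 2.36 without ethanol-fed control replicate 1, and Hc at 0.28 without ethanol-fed control replicate 2. C8b was 504, 561 and 471 CPM in these overexpression livers and 282, 223 and 317 in the controls, without overlap.

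Ethanol-fed overexpression and knockout livers gave the 1 call between genotypes. Cpb2 passed, at 895, 1027 and 1167 CPM in overexpression and 727, 666 and 585 in the knockout, a difference of 0.64 ± 0.16 (adjusted p = 0.0489), and it was 1 of 39 members (2.56%), where 1.88% of all genes passed. The call was lost in each of the 6 fits that left out 1 library (adjusted p from 0.052 to 0.178). C8b (1.02 ± 0.32, adjusted p = 0.107), C2 (0.61 ± 0.19, adjusted p = 0.107), Hrg (0.79 ± 0.26, adjusted p = 0.128), Kng1 (0.61 ± 0.20, adjusted p = 0.129) and Mbl1 (0.66 ± 0.23, adjusted p = 0.158) were higher in value and did not pass. In all, 28 of 39 members were higher in overexpression, with a median of 0.31, where 45.0% of all genes were higher and their median was -0.05. Every overexpression library lay above every knockout library for 17 members (43.6%), where 8.94% of all genes did, and below for 1, C8g (2.56%), where 12.5% did. The 17 came from most roles: Mbl1; C2 and C3; Hc, C6, C8a, C8b and C9; Serping1 and Vtn; F13b and Kng1; Serpind1 and Proz; and Plg, Cpb2 and Hrg. No fibrinogen chain was among them.

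**Figure D5:**
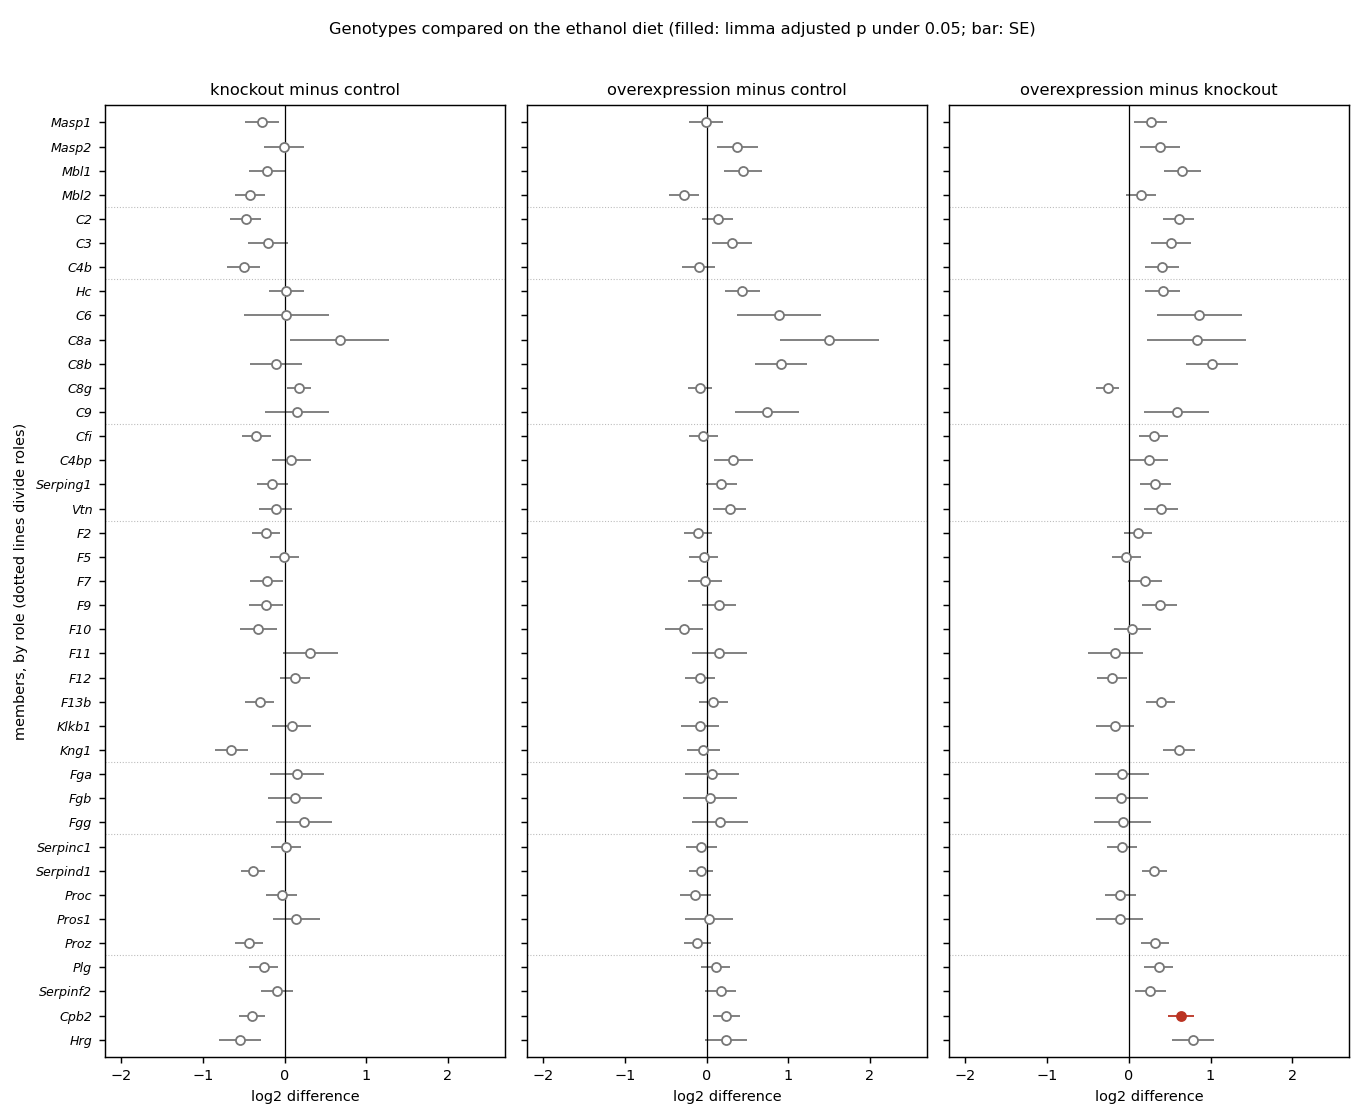
Log2 difference between genotypes on the ethanol diet (x axis) of the 39 members, for knockout minus control, overexpression minus control and overexpression minus knockout, with points for the estimate, bars for its SE, and a filled red point for an adjusted p under 0.05. In the third panel 28 of 39 points lie to the right of 0 and Cpb2 is filled.

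Whether ethanol acted differently by genotype was tested by the interaction of diet with genotype, and no gene of the panel passed. At an unadjusted p under 0.05, 5 members were counted for knockout (1 up, 4 down) and 3 for overexpression, all up, beside 666 and 847 of all 11720 genes. For knockout the smallest p values were those of Mbl2 (-0.68 ± 0.26), Kng1 (-0.70 ± 0.28) and Proz (-0.55 ± 0.24), all with adjusted p = 0.864. For overexpression they were C8b (1.08 ± 0.45, adjusted p = 0.6), Proz (0.57 ± 0.24, adjusted p = 0.605) and F7 (0.63 ± 0.29, adjusted p = 0.677). A change that passed in 1 genotype is therefore not shown to differ from the change in another.

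Other genes of the same cascades, many of them from endothelium and macrophages, were read from a list of 55, of which 40 were tested. In controls 7 rose and 2 fell on ethanol, where 1.02% of all tested genes rose and 1.67% fell. Thbd, thrombomodulin, the endothelial receptor that lets thrombin activate protein C, went from 3.45 ± 1.52 to 31.4 ± 11.2 CPM (SD, n = 3; log2 change 2.85 ± 0.46 (SE), limma adjusted p = 0.00295). Kng2, a second kininogen gene, went from 650.3 ± 74.4 to 1083 ± 10.7 CPM (0.74 ± 0.16, adjusted p = 0.0168). F2r, the thrombin receptor, Plaur, Cd93 and Thbs1 rose too, while Colec10 and Tfpi2 fell. In the knockout 3 rose (Thbd, F2r and Cd93) and 4 fell (C1qb, Cfp, Vsig4 and Tfpi2), of which C1qb and Vsig4 are also among the Kupffer markers. There 4.1% of all genes rose and 5.79% fell, and the diets differ in sex-chromosome pattern too. In overexpression 0.401% of all genes rose. Itih4, a kallikrein-sensitive plasma protein, was the 1 gene that rose in overexpression, from 1707 ± 612 to 3844 ± 953 CPM (limma adjusted p = 0.0271).

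The members can be set beside other secreted products of the hepatocyte. Of 21 tested genes for such proteins, albumin and apolipoproteins among them, none passed on ethanol in controls or overexpression, and in the knockout 2 rose and 2 fell. Of 16 acute phase genes 3 rose in controls, 5 rose and 1 fell in the knockout, and 6 rose in overexpression. Of all tested genes 1.02% rose and 1.67% fell in controls, 4.1% and 5.79% in the knockout, and 0.401% and 0.751% in overexpression. Lcn2, lipocalin 2, rose in all 3 genotypes, from 13.1 to 429.7 CPM in controls, 12.9 to 635 in the knockout and 37.7 to 854 in overexpression (log2 changes of 4.57, 5.48 and 4.81). Orm3 rose in all 3 as well, with log2 changes of 2.60, 2.23 and 2.66. Crp, a pentraxin that binds C1q, fell by 0.86 on the log2 scale in the knockout (limma adjusted p = 0.00625) and was higher in ethanol-fed overexpression than in ethanol-fed knockout livers (1.23 ± 0.18, limma adjusted p = 0.0023). For the knockout diets, diet and sex-chromosome pattern cannot be told apart in these lists either.

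Among 18 tested regulators of these genes, Xbp1, a factor of the unfolded protein response, rose on ethanol in all 3 genotypes (0.93 ± 0.15, 1.16 ± 0.15 and 0.86 ± 0.15), and Stat3, the factor activated by interleukin-6, in controls (1.22 ± 0.19) and the knockout (0.87 ± 0.19). Cebpa fell in the knockout (-0.90 ± 0.26), where 3 of the 18 rose and 2 fell. Diet and sex-chromosome pattern cannot be told apart in these knockout changes. Hspa5, the main chaperone of the endoplasmic reticulum through which the members are exported, was higher in ethanol-fed overexpression than in ethanol-fed control livers, at 2359 ± 1521 against 666.5 ± 58.8 CPM (1.65 ± 0.31, adjusted p = 0.0467). Of 7 tested genes for vitamin K-dependent carboxylation and factor export, 1 passed, Tpst2, which sulphates tyrosines of factors such as factor V and rose in the knockout on ethanol (0.73 ± 0.20, limma adjusted p = 0.024). The sex-chromosome pattern differs between those diets too.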

How the data were processed

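Liver RNA of 18 libraries, 3 in each of 6 groups, was read with the Ion AmpliSeq mouse transcriptome panel, which counts reads of 1 amplicon per gene, per the labels' protocols. The authors deposited a table of CPM and, for each library, log2(RPM + 1) values written by ampliSeqRNA 5.10.1.2, per the file headers; which aligner and which genome build they used is not given in the sources used here. The log2 values differed from log2(CPM + 1) by at most 1.96e-06. The CPM were whole multiples of 1 read: 100% of values came within 0.02 of a whole read. Total reads per library, a measure of counting error only, were 4680152 to 5806228. 4850 of the 23930 genes had no read.

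Genes of at least 1 CPM in 3 libraries (11720) were fitted as log2(CPM + 1) with limma 3.58.1 (R 4.3.3; lmFit, eBayes with trend) over all 6 groups, which leaves 12 residual degrees of freedom, with 10 contrasts and Benjamini-Hochberg adjustment within each. Folds are on that scale, which understates changes of low genes. Shares of reads were compared by an exact permutation test. The rule for the members uses symbols alone, but the members and lists were chosen with earlier results of these data known. The value in every library is given for members that passed in any contrast and for the 3 members of smallest p in each. edgeR 4.0.16 (quasi-likelihood on recovered reads), TMM and quantile scaling, other filters and pseudocounts, blocks, a term for Xist above Ddx3y, and leaving out each library were the alternatives. The scripts were tested on simulated data. Libraries of one group differed well beyond sampling noise (chi-square per degree of freedom of at least 10.6), so none was merged. 1 gene of the list of other cascade genes is not reported here.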

Additional observations from a re-analysis of the deposited data

How the results depend on the processing

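Of 225 alternative fits of the 13 member changes that passed, 146 kept the call, 79 lost it, and none turned its direction; of 444 fits of 23 named changes that did not pass, 13 gained a call. For ethanol in controls the number of called members was 1, and it was 0 with TMM factors, quantile normalization, edgeR, the compared groups alone, the Xist term, and the libraries with Ddx3y above Xist alone (0 to 3 when single libraries were left out). For ethanol in the knockout it was 9, and 0 with the Xist term (3 to 10 without single libraries; 3 without pair-fed replicate 2 or ethanol-fed replicate 1, and 5 without ethanol-fed replicate 2). For ethanol in overexpression it was 2, and 5 with the filter at 10 CPM, 4 with quantile normalization, 4 with edgeR and 7 with the compared groups alone (0 to 5 without single libraries; 0 without pair-fed replicate 1 or 3 or ethanol-fed replicate 2 or 3, and 5 without ethanol-fed replicate 1). For ethanol-fed overexpression against knockout it was 1, and 0 with no filter, quantile normalization, edgeR, the replicate block, the barcode range as a block, the Xist term, and the libraries with Ddx3y above Xist alone (0 to 0 without single libraries). For pair-fed overexpression against control it was 0, and 0 to 3 without single libraries (3 without control replicate 1). Why the counts moved was not tested for any setting.

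Libraries with the same replicate number in different groups deviated together little (median r of 0.03, over 0.1 in 6 of 45 pairs). For other numbers the median r was -0.01, over 0.1 in 8 of 90 pairs, and 8 of 18 libraries correlated best with their own number. The labels do not pair the numbers, and they are not taken as pairs. Barcode range followed the replicate number in all libraries but ethanol-fed control replicate 1, so the 2 blocks are nearly the same. With the replicate number as a block the counts of called members were 1, 9 and 2 for ethanol in control, knockout and overexpression and 0 for overexpression against knockout on ethanol, where Cpb2 had an adjusted p of 0.0564; no other call changed. With 3 libraries a group the design limits which changes of the members can pass.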
